A study of Arabidopsis thaliana with 18 samples.

Results

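Photosynthetic light capture depends on nuclear genes for the subunits and antenna proteins of the 2 photosystems, and 43 of these were followed here in Arabidopsis thaliana rosettes. They were taken by gene identifier: the 6 LHCA genes of the photosystem I antenna, the 14 LHCB genes of the photosystem II antenna, PSBS, 12 nuclear subunit genes of photosystem I and 10 of photosystem II. All 43 of the 43 had a row in the table of 37336 genes. Photosystem II takes electrons from water and photosystem I hands them to ferredoxin. Their core reaction centre proteins are encoded in the chloroplast, whereas the antenna proteins, the oxygen-evolving proteins and many small subunits are made from nuclear genes and imported. Antenna and subunit genes are known to be expressed together in green leaf cells, to be induced by light, to be activated by the GLK transcription factors, and to decline as leaves age.

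RNA came from whole rosettes harvested 21 days after sowing, grown at 21 °C under 16 h light and 8 h dark and moved from plates to soil at day 14. Each library was a pool of 6 to 10 plants. In the first sequencing stage there were 3 libraries each of the accession C24, the accession Ler, Ler carrying the NahG transgene (Ler NahG) and the F1 hybrid C24 x Ler. In the later stage there were 2 libraries each of C24 controls, called C24B, and of the independent transgenic lines C24 NahG 2 and C24 NahG 3. The NahG transgene encodes a salicylate hydroxylase from bacteria, which breaks down the defence hormone salicylic acid; the promoter that drives it is not given in the labels used here. The labels do not say whether pools were grown separately, so p-values measure the spread between pools. Levels are gene reads scaled to library size (CPM) after trimmed-mean scaling within a stage. Comparisons were made within a stage only, with the exception of one test of the difference between effects each taken within its stage. Log2 fold changes are given ± SE, and a gene was called at a Benjamini-Hochberg adjusted p under 0.05 over all genes tested with edgeR's quasi-likelihood test.

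First-stage libraries held 22446656 to 25706088 gene reads and later-stage libraries 28132721 to 32465711, and the 43 genes held 5.62 to 13.0% of them. Mesophyll genes were abundant in all libraries (summed level of 5 genes 22036 to 52062 CPM), while 5 root markers summed to 0.564 CPM at most. The shoot-apex gene STM (AT1G62360, a homeobox gene of the shoot meristem) separated libraries within groups. It stood at 25.3, 22.7 and 25.0 CPM in C24, at 9.70, 40.2 and 48.5 in Ler and at 26.4, 8.61 and 44.1 in Ler NahG. In the hybrid it was 0.102, 0.390 and 0.705 CPM. In the later stage it was 0.467 and 21.9 CPM in C24B, 27.9 and 23.4 in C24 NahG 2, and 22.6 and 39.8 in C24 NahG 3. Hence all hybrid libraries and the first C24B library held almost no STM, and the first Ler and the second Ler NahG library held less than the others of their groups. Floral organ genes (AP1, AP3, PI, AG and SEP3) summed to 62.2 to 125 CPM in Ler and Ler NahG and to no more than 7.0 CPM elsewhere. In a pool of tissue, fewer cells of a type and less RNA per cell cannot be told apart.

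The 250 bases before the annotated start of 5 members are shown because they span the range of behaviours described below. LHCA4, LHCB4.1 and PSBQ2 rose in the hybrid, as nearly all members did, and carry several light-related motifs. LHCB2.3 differed strongly between the accessions. LHCB4.3 moved apart from the family and holds none of the 3 motifs searched. Other promoters also hold none, among them those of LHCB1.1, PSAN, PSBO2, PSBP1 and PSBS, which all rose in the hybrid against C24. Whether the motifs bear on these changes was not tested. The sequences are RefSeq's for the Columbia reference (TAIR10.1), so C24 and Ler alleles may differ. They run 5′ to 3′ on the gene's strand at chr3:17495034-17495283 (minus) for LHCA4, chr5:208616-208865 (plus) for LHCB4.1, chr3:10255656-10255905 (plus) for LHCB2.3, chr4:2673244-2673493 (minus) for PSBQ2 and chr2:16745378-16745627 (plus) for LHCB4.3. Capitals mark the G-box CACGTG, the I-box GATAAG and CCAATC, a sequence linked to GLK-activated genes, on either strand.
LHCA4: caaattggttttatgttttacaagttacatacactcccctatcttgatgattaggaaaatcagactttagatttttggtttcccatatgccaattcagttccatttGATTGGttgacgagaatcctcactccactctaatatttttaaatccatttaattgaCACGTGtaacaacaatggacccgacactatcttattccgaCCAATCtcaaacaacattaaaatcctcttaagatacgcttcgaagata
LHCB4.1: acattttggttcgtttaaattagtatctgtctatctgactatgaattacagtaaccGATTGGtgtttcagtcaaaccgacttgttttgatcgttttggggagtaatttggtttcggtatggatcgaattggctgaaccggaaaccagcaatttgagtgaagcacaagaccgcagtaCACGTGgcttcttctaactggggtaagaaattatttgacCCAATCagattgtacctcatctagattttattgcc
LHCB2.3: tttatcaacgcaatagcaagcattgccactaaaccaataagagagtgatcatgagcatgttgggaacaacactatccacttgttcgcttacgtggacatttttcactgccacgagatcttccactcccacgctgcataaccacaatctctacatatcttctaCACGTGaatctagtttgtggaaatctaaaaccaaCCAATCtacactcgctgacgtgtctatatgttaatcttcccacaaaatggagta
PSBQ2: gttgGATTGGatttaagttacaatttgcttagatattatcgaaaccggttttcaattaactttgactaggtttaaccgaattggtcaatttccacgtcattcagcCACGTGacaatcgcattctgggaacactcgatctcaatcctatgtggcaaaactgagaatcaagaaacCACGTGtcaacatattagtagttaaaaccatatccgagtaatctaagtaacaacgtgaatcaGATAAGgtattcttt
LHCB4.3: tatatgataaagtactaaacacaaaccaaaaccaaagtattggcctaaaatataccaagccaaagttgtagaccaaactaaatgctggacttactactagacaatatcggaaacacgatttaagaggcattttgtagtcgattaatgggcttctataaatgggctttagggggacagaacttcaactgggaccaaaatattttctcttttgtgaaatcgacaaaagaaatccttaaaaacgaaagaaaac

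Over the promoters of all 43 members, CCAATC on either strand was found in 11 (25.6%), against 10.2% of 27443 promoters of protein-coding genes. It was unevenly spread over the classes, with 3 of 6 LHCA, 7 of 14 LHCB, 1 of 10 photosystem II subunits and 0 of 12 photosystem I subunits. The G-box was found in 9 of 43 (20.9%), against 6.49% of all promoters, and the I-box in 9 of 43 (20.9%), against 12.3%. None of these 3 sequences overlaps another at the matches shown, and a match is only a description of these letters in this window.

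Among the antenna genes the levels differed widely. Per kb of exon that no other gene overlaps, and averaged over the 4 first-stage groups, LHCB1.3 led with 10281 CPM per kb, followed by LHCB5 (4057) and LHCB1.2 (3781). LHCB1, LHCB2 and LHCB3 form light-harvesting trimers, and LHCB5 is the monomeric antenna protein CP26. Of the photosystem I antenna LHCA4 was highest (3968 CPM per kb), then LHCA2 (2934) and LHCA1 (2665), whereas LHCA5 (181) and LHCA6 (152), which link photosystem I to the NDH complex, were low. PSBR (5591 CPM per kb), PSBP1 (3684) and PSBO1 (3447), which belong to or assist the oxygen-evolving complex, led photosystem II. PSAO (3583), PSAL (3422) and PSAK (3151) led photosystem I. LHCB4.3 was the lowest of the LHCB genes with reads (66.4 CPM per kb).

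Counting limits the view of some members. LHCB1.5 (chr2:14522524-14523568, minus) was listed at 0 in all 18 libraries, and 100% of its exon bases lie under exons of other genes. Over the table, 325 of 325 protein-coding genes wholly covered by exons of the opposite strand were listed at 0 throughout, against 9.27% of 19995 genes with no overlap, so the count of 0 is no measure of LHCB1.5 expression. The overlap covered 61.4% of the exon bases of PSAG, 53.3% of PSAH1 and 40.6% of LHCB2.3. LHCB1.2, LHCB1.1 and LHCB1.3 lie side by side on chromosome 1 (10472280 to 10479114, 1153 and 1915 bases apart) and share 95.6 to 96.4% of aligned coding bases, and LHCB2.1 and LHCB2.2 share 96.6%. How reads were split among these copies, or lost as mapping to several places, was not tested.

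C24 rosettes held less antenna transcript than Ler rosettes, and most of the genes called were antenna genes. Summed LHCA levels were 10531 ± 307 CPM in C24 and 16472 ± 3507 in Ler (SD, n = 3 each), and summed LHCB levels were 24740 ± 910 and 36563 ± 8657. The photosystem I sum was 15210 ± 757 against 18865 ± 4812 and the photosystem II sum 21720 ± 1204 against 25642 ± 6490. The spread in Ler came from its first library, which was the highest of the 3 for 41 of the 42 members tested.

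**Figure D1:**
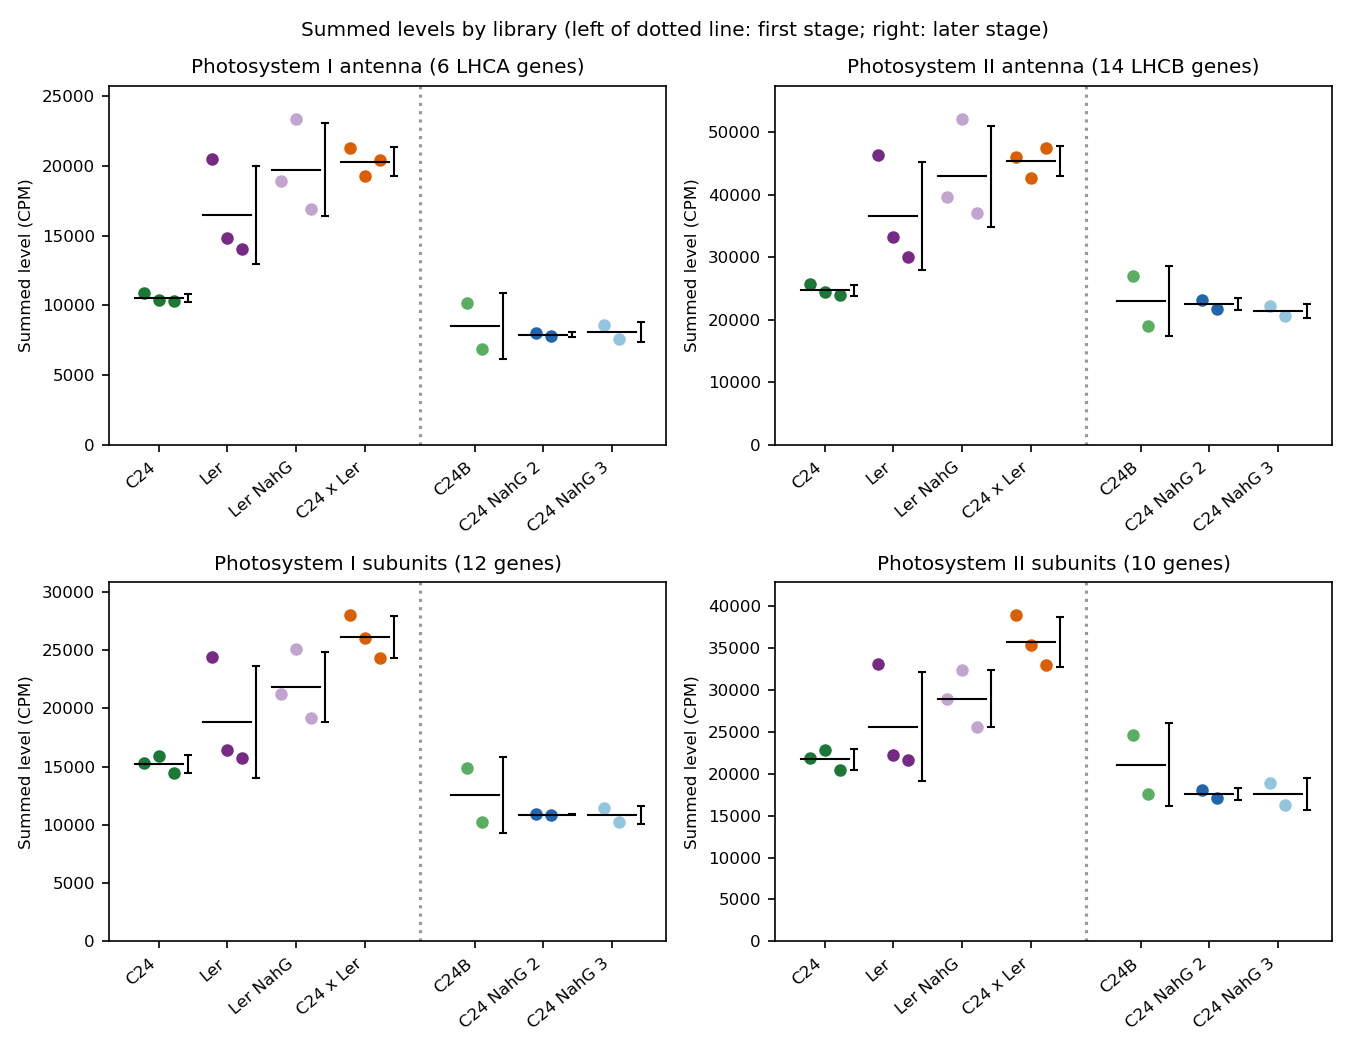
Summed CPM of 4 classes (y axes, CPM) in each library; points are libraries, lines are group means and bars the SD. The C24 libraries lie below the hybrid libraries in every panel, and 1 library of Ler, of Ler NahG and of C24B lies above the others of its group.

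Of 42 tested members 15 were lower in C24 and 0 higher, where 19.8% of all 20325 genes tested were lower and 22.6% higher. The calls covered 4 of 6 LHCA genes and 9 of 13 tested LHCB genes, but 2 of 12 photosystem I subunits and 0 of 10 photosystem II subunits. PSBS (AT1G44575), the sensor that switches on heat dissipation of excess light, was not called (-0.11 ± 0.15, adjusted p = 0.58). The median log2 fold change was -0.64 over LHCA, -0.59 over LHCB, -0.26 over photosystem I and -0.25 over photosystem II, beside -0.01 over all genes. Without the first Ler library these medians were -0.46, -0.40, -0.04 and -0.02, the median of all members was -0.08 instead of -0.30, and 10 of 42 members were above 0. Whether the classes differed from each other was not tested.

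LHCB1.1 (AT1G29920) showed the largest difference. It read 591, 419 and 513 CPM in the C24 libraries against 2819, 1909 and 1634 in Ler, a log2 fold change of -2.06 ± 0.25 (adjusted p = 3.6e-05). Its neighbours were less affected, with LHCB1.2 at -0.74 ± 0.21 (adjusted p = 0.013) and LHCB1.3 at -0.35 ± 0.19 (adjusted p = 0.17, not called). LHCB1.1 made up 4.68, 3.50 and 4.45% of the summed LHCB1.1 to LHCB1.3 level in C24 and 12.3, 11.7 and 11.2% in Ler. The shares do not overlap, and they do not depend on depth or scaling.

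LHCB1.4 read 566, 562 and 603 CPM in C24 and 2208, 1625 and 1425 in Ler (-1.60 ± 0.20, adjusted p = 5.9e-05). LHCB2 proteins carry the phosphorylation that moves trimers between the photosystems, and all 3 of their genes were lower. LHCB2.1 read 258, 187 and 246 CPM in C24 against 808, 695 and 567 in Ler (-1.58 ± 0.22, adjusted p = 0.00013). The corresponding changes were -1.20 ± 0.22 for LHCB2.2 (adjusted p = 0.001) and -1.46 ± 0.23 for LHCB2.3 (adjusted p = 0.00031). Every C24 library lay below every Ler library for each of these genes.

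LHCB3, also of the trimers, was lower by less (-0.58 ± 0.19, adjusted p = 0.025), as were the monomeric antenna genes LHCB4.2 of CP29 (-0.59 ± 0.18, adjusted p = 0.021) and LHCB5 (-0.47 ± 0.17, adjusted p = 0.042). LHCA3 (AT1G61520) of the photosystem I belt read 2059, 2032 and 1964 CPM in C24 and 5334, 3741 and 3595 in Ler (-1.07 ± 0.17, adjusted p = 0.0004). LHCA1 (-0.63 ± 0.18, adjusted p = 0.013), LHCA4 (-0.66 ± 0.17, adjusted p = 0.0082) and LHCA5 (-0.68 ± 0.17, adjusted p = 0.0064) were also lower. Leaving out each first-stage library in turn kept 11 of the 15 calls throughout; LHCA1, LHCB3, LHCB4.2 and LHCB5 lost theirs in at least 1 such fit, where the member count fell to 11 at the lowest.

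The 2 called subunits of photosystem I were PSAD2 and PSAN. PSAD2 (AT1G03130) encodes a copy of the stromal subunit that docks ferredoxin, and read 409, 419 and 398 CPM in C24 against 957, 647 and 587 in Ler (-0.84 ± 0.20, adjusted p = 0.0054). Its partner PSAD1 was not called (-0.16 ± 0.20, adjusted p = 0.54). PSAD2 thus held 22.7 to 23.7% of the pair in C24 and 32.2 to 32.9% in Ler. PSAN, a lumenal subunit near the plastocyanin site, changed by -0.65 ± 0.18 (adjusted p = 0.013). The largest value among photosystem II subunits was PSBO2, of the oxygen-evolving complex, at -0.39 ± 0.17 (adjusted p = 0.082).

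Among the other photosynthesis genes, 0 of 8 electron transport and 0 of 3 ATP synthase genes were called. Of 7 genes of cyclic flow and state transitions 4 were lower, among them PGRL1A (-0.86 ± 0.15, adjusted p = 0.00063) and the photosystem II kinase STN8 (-0.80 ± 0.21, adjusted p = 0.0097). Of 8 relatives of the antenna genes 3 were lower, with ELIP1, an early light-induced protein read at no more than 4.03 CPM, at -2.43 ± 0.37 (adjusted p = 0.00027). Of 8 assembly and repair genes 2 were lower, PSB27 (-0.60 ± 0.14, adjusted p = 0.005) and THF1 (-0.57 ± 0.14, adjusted p = 0.0052). Among regulators GLK2 was lower (-0.70 ± 0.15, adjusted p = 0.0032) and GLK1 was not called (0.04 ± 0.27, adjusted p = 0.93). The GATA factor GNL (1.15 ± 0.25, adjusted p = 0.0027) and the light-signalling factor HY5 (0.61 ± 0.20, adjusted p = 0.025) were higher. STM was not called (-0.43 ± 0.56, adjusted p = 0.57). All 9 tested shoot-apex genes had negative values, with a median of -0.62, and 2 were called lower. These were the organ boundary gene CUC2 (-1.07 ± 0.38, adjusted p = 0.04) and WUS of the stem cell niche, at 0, 0 and 0.036 CPM in C24 against 2.06, 1.58 and 0.437 in Ler. The floral genes were far lower in C24, SEP3 by -4.40 ± 0.32 (adjusted p = 7.9e-07). The part of floral and apex tissue in these differences, and of C24 and Ler bases that differ from the reference used for counting, was not tested.

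**Figure D2:**
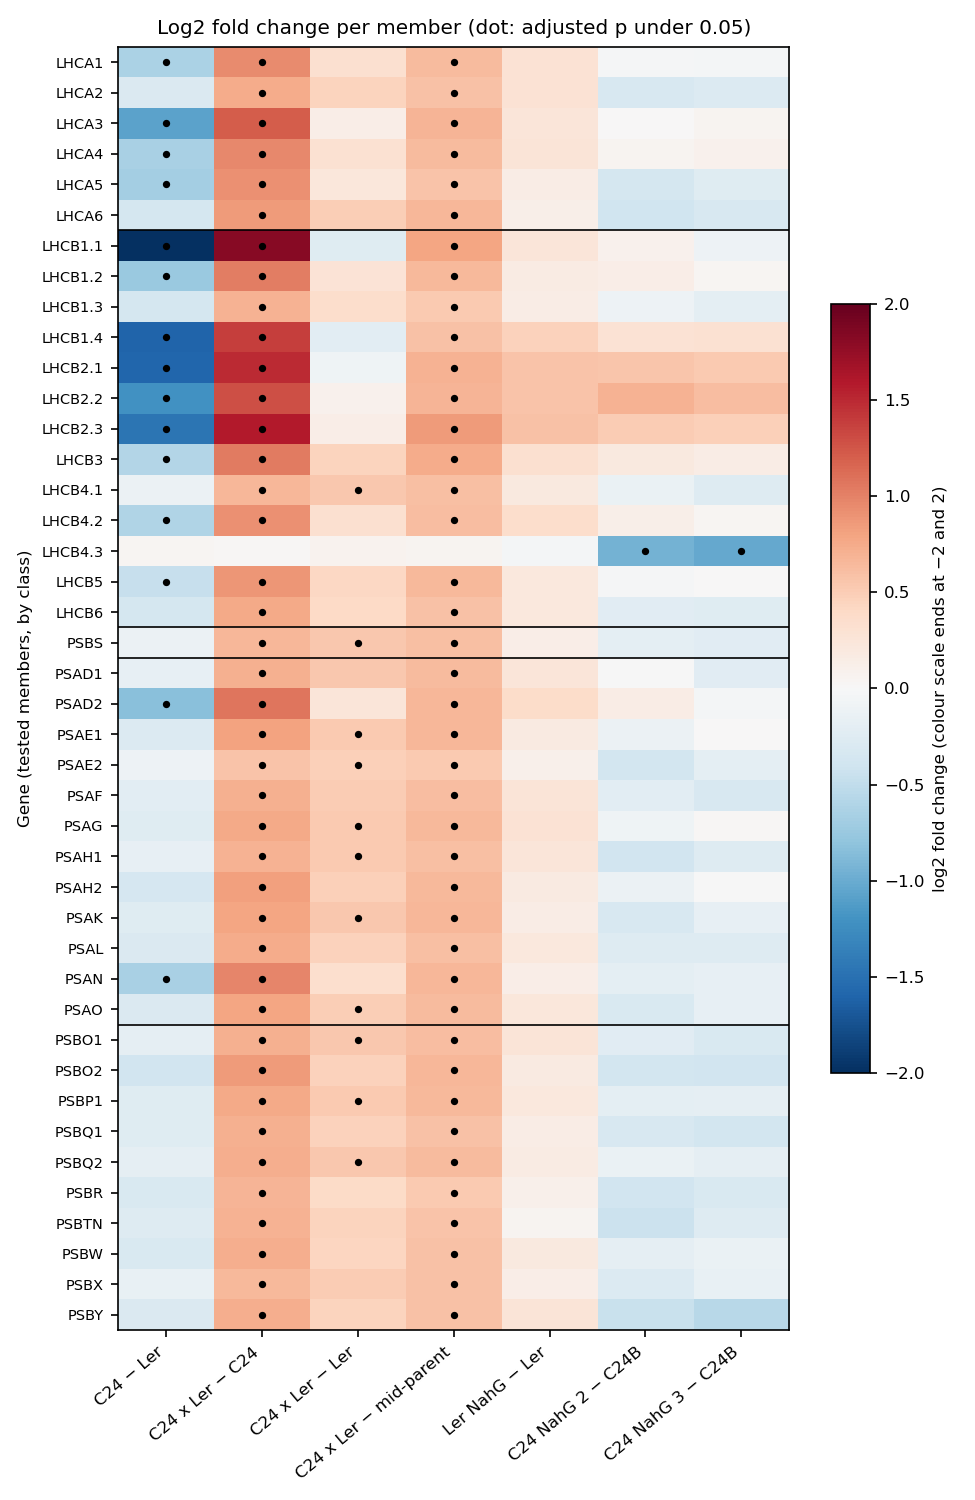
Log2 fold change (colour) of the 42 tested members (rows, grouped by class) in 7 comparisons (columns), with a dot where the adjusted p was under 0.05. Dots fill the columns of the hybrid against C24 and against the mid-parent except at LHCB4.3, which alone carries dots in the columns of the C24 NahG lines.

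The hybrid held more transcript of nearly every member than its parent C24. The summed level of the 43 genes was 136977, 125944 and 127388 CPM in the hybrid, against 75342, 75259 and 70679 in C24 and 126456, 88337 and 82889 in Ler. Of 42 tested members 41 were higher than in C24 (17.2% of all genes tested were higher), with a median log2 fold change of 0.77 against -0.04 over all genes. LHCB4.3 was the 1 exception (0.03 ± 0.15, adjusted p = 0.91). By class, 6 of 6 LHCA, 12 of 13 tested LHCB, 12 of 12 photosystem I and 10 of 10 photosystem II genes rose, with medians of 0.93, 1.02, 0.77 and 0.72. The 15 genes that were lower in C24 than in Ler were all among those higher in the hybrid than in C24; both comparisons use the same C24 libraries.

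The largest rise was that of LHCB1.1, which reached 1615, 1757 and 2014 CPM (1.82 ± 0.24, adjusted p = 0.0002). LHCB2.3 read 237, 224 and 289 CPM, against 92.9, 71.0 and 86.7 in C24 (1.58 ± 0.23, adjusted p = 0.00037). LHCA3 (1.21 ± 0.17, adjusted p = 0.00035) and LHCA4 (0.96 ± 0.17, adjusted p = 0.0012) led the photosystem I antenna. In photosystem I, PSAD2 rose by 1.08 ± 0.20 (adjusted p = 0.0018) and PSAN by 0.98 ± 0.18 (adjusted p = 0.0017). In photosystem II, PSBO2 (0.85 ± 0.17, adjusted p = 0.0024) and PSBP1 (0.76 ± 0.18, adjusted p = 0.006) of the oxygen-evolving complex rose. PSBS read 2681, 2505 and 2192 CPM, against 1581, 1617 and 1482 in C24 (0.66 ± 0.15, adjusted p = 0.005). For each of these genes the hybrid libraries lay above the C24 libraries.

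Against Ler fewer members rose in the hybrid, most of them subunit genes; whether the classes differed was not tested. The median log2 fold change was 0.45, and 25 of 42 members had an unadjusted p under 0.05 (41.4% of all genes tested had one). Of 42 members 11 were called higher and 0 lower (15.8% of all genes tested were higher and 14.4% lower). They were 6 of 12 photosystem I genes (PSAE1, PSAE2, PSAG, PSAH1, PSAK and PSAO), 3 of 10 photosystem II genes (PSBO1, PSBP1 and PSBQ2), PSBS and 1 antenna gene, LHCB4.1 of CP29. PSAG, which helps to hold the antenna at photosystem I, read 416, 422 and 406 CPM against 361, 257 and 248 in Ler (0.52 ± 0.14, adjusted p = 0.015). PSBS rose by 0.55 ± 0.15 (adjusted p = 0.016) and LHCB4.1 by 0.54 ± 0.18 (adjusted p = 0.04). PSBQ2 rose by 0.55 ± 0.18 (adjusted p = 0.037), PSBP1 by 0.53 ± 0.18 (adjusted p = 0.042) and PSAO, of the side of photosystem I where trimers dock, by 0.49 ± 0.17 (adjusted p = 0.048). None of the 11 calls held in every fit that left out 1 library. Without the first Ler library 35 members were called, where 4055 of all 20665 genes tested were called higher. Without the second or the third 0 were, where 2198 of 20643 and 2035 of 20579 genes were. With DESeq2, 22 members were called (32.2% of all genes tested in either direction). With only Ler and the hybrid in the fit 0 members were called, where 3949 of all 19195 genes tested were, 1759 of them higher. In that fit 8 members had an unadjusted p under 0.05 (34.7% of all genes tested had one).

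Against the mean of both parents on the log scale, 41 of 42 members were higher (15.5% of all genes tested were higher), with a median of 0.63 and values of 0.52 to 0.85 among the 41. LHCB2.3 had the largest (0.85 ± 0.19, adjusted p = 0.0078), LHCA3 stood at 0.67 ± 0.15 (adjusted p = 0.007), PSAG at 0.64 ± 0.12 (adjusted p = 0.0031) and PSBO2 at 0.66 ± 0.14 (adjusted p = 0.0065). LHCB4.3 stood at 0.05 ± 0.13 (adjusted p = 0.82). Without the first hybrid library 15 members were called higher, where 1519 of all 20696 genes tested were.

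Proportions within the families were intermediate in the hybrid, although the totals were high. LHCB1.1 held 7.43, 8.73 and 8.77% of the LHCB1.1 to LHCB1.3 level, above every C24 library and below every Ler library. PSAD2 held 27.5, 28.7 and 28.4% of the PSAD pair, also between the parents. The ratio of the summed LHCB to the summed photosystem II level was 1.18, 1.07 and 1.17 in C24, 1.4, 1.5 and 1.39 in Ler, 1.37, 1.61 and 1.45 in Ler NahG and 1.18, 1.21 and 1.44 in the hybrid. The ratio of summed LHCA to photosystem I was 0.652 to 0.716 in C24, 0.840 to 0.903 in Ler and 0.741 to 0.838 in the hybrid. The summed LHCA to photosystem I ratio of the first Ler library, 0.840, was the lowest of the 3 Ler libraries.

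**Figure D3:**
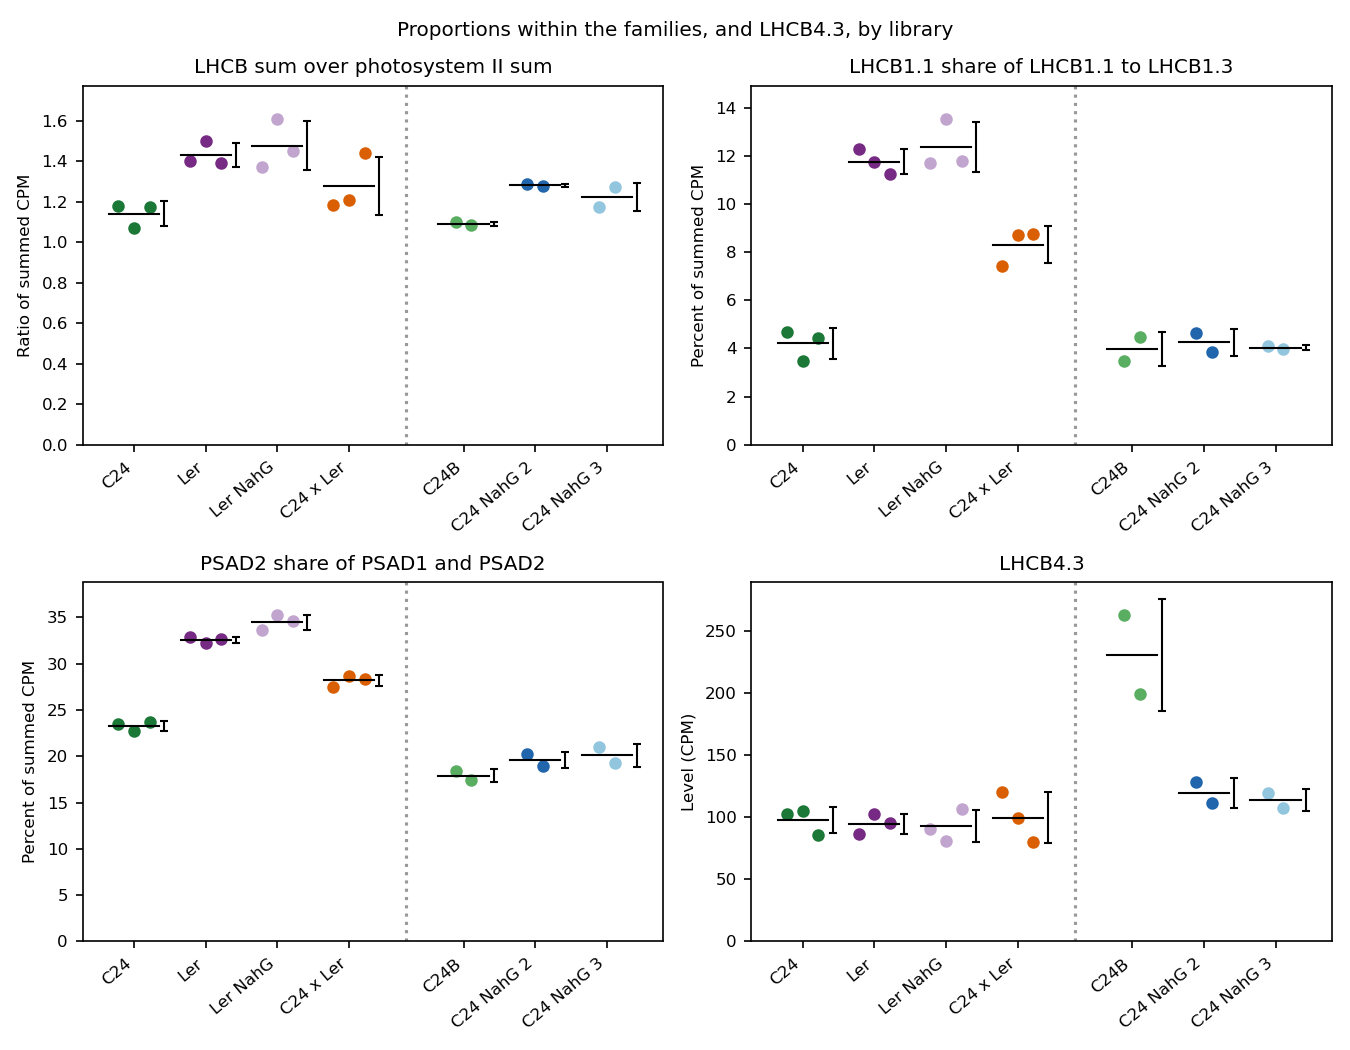
Ratio of summed LHCB to photosystem II level, LHCB1.1 share of 3 LHCB1 genes, PSAD2 share of the PSAD pair and LHCB4.3 level (CPM) in each library, with group means and SD. Both shares in the hybrid lie between C24 and Ler, and LHCB4.3 is higher in C24B than in the C24 NahG lines.

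Other genes of the light reactions were also compared. Against C24, 7 of 8 electron transport genes were higher, including FNR2 of ferredoxin-NADP reductase (0.84 ± 0.18, adjusted p = 0.0042), and so were 3 of 3 ATP synthase genes, 8 of 8 assembly and repair genes, among them PSB27 (0.86 ± 0.14, adjusted p = 0.00091), and 5 of 7 genes of cyclic flow and state transitions. Against Ler 5 of 8 electron transport, 2 of 3 ATP synthase, 3 of 8 assembly and repair and 2 of 7 cyclic flow genes were higher. Of 8 relatives of the antenna genes 6 were higher than in C24. Against Ler 0 of them were higher and ELIP1 was lower (-2.42 ± 0.38, adjusted p = 0.00082). GLK2 was higher than in C24 (0.73 ± 0.15, adjusted p = 0.0038) but not called against Ler (0.02 ± 0.15, adjusted p = 0.94). GLK1 was not called against C24 (0.61 ± 0.27, adjusted p = 0.093) or Ler (0.65 ± 0.27, adjusted p = 0.087). GNL, a GATA factor that promotes chloroplast development, was higher than in Ler (0.98 ± 0.25, adjusted p = 0.012).

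The hybrid's rise went together with a near absence of STM transcripts and lower levels of most tested shoot-apex genes. STM was lower than in C24 by -5.89 ± 0.87 (adjusted p = 0.00039) and lower than in Ler by -6.32 ± 0.86 (adjusted p = 0.00031), and 6 and 8 of the 9 tested shoot-apex genes were lower. The summed level of the 11 apex genes was 41.4 to 54.2 CPM in the hybrid, 83.9 to 93.7 in C24 and 75.5 to 178 in Ler; CLV1, at 31.8 to 55.9 CPM in the first stage, did not follow the others. Mesophyll genes summed to 38836 to 45025 CPM in the hybrid, against 24454 to 28972 in C24 and 22036 to 35918 in Ler, and their part in the result was not tested. With the log2 STM level as a covariate, 0 of 42 members were called in the hybrid against C24, Ler or the mid-parent, and the medians became -0.27, -0.62 and -0.44. Calls over all genes fell as well, to 9.72, 5.51 and 3.33% of the 20325 genes tested in either direction (1976, 1120 and 677 genes, against 7433, 6149 and 5500 without the covariate). The hybrid libraries lie outside the range of STM in either parent. A common slope was fitted over all first-stage libraries, the hybrid included, and spans this gap, so STM and hybrid state cannot be told apart. Hybrid STM levels, 0.102 to 0.705 CPM, were near 0, so on the log scale their differences rest on few reads. Under the same covariate 30 of 42 members were lower in C24 than in Ler (23.5% of all genes tested were lower), with a median of -0.30.

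Within groups, members were lower where STM was higher. In a fit with 1 level per group, 33 of 42 members fell with rising log2 STM in the first stage (7.32% of all 20324 genes tested did) and 0 rose (6.42% of all did), with a median slope of -0.18 log2 units per doubling of STM. All 12 photosystem I and all 10 photosystem II subunits were called, with 5 of 6 LHCA, 5 of 13 LHCB and PSBS. LHCA6 had the steepest slope (-0.24 ± 0.04, adjusted p = 0.0061); called genes of the photosystems included PSBO2 (-0.19 ± 0.03, adjusted p = 0.0086), PSAL (-0.19 ± 0.04, adjusted p = 0.0096) and PSAO (-0.18 ± 0.03, adjusted p = 0.0096). LHCB4.3 was flat (0.01 ± 0.07, adjusted p = 0.93). KNAT1, another apex homeobox gene, rose with STM (1.38 ± 0.07, adjusted p = 5.2e-06), and the 5 mesophyll genes fell, CA1 by -0.31 ± 0.05 (adjusted p = 0.006). The result rests on few libraries: without the first Ler library 0 members were called, with only 4 genes called in all, and leaving out the others gave 16 to 41.

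**Figure D4:**
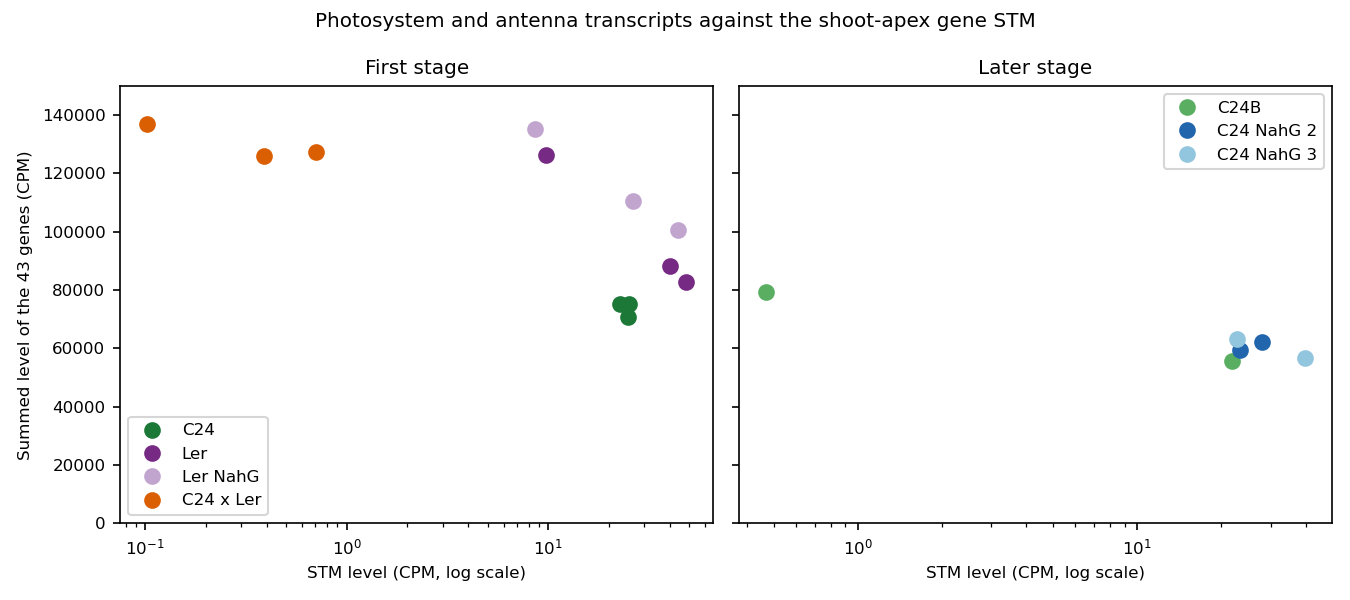
Summed level of the 43 genes (y axis, CPM) against STM (x axis, CPM on a log scale) in each library, by stage. The hybrid libraries and the first C24B library lie at STM below 1 CPM, and the first Ler and second Ler NahG libraries have the lowest STM and the highest sums of their groups.

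In Ler 41 of 42 members, in Ler NahG 39 of 42 and in C24B 42 of 42 were highest in the library with the lowest STM. In the other groups the count was 25 of 42 in C24, 24 in the hybrid, 21 in C24 NahG 2 and 36 in C24 NahG 3; C24, C24 NahG 2 and C24 NahG 3 held no library with little STM, and the hybrid no library with much. In the later stage 4 of 42 members fell with STM (0.363% of all 20111 genes tested did): LHCB1.4 (-0.17 ± 0.03, adjusted p = 0.014), LHCB4.2 (-0.13 ± 0.03, adjusted p = 0.04), PSAD2 (-0.15 ± 0.03, adjusted p = 0.046) and PSBY, a small photosystem II protein (-0.15 ± 0.03, adjusted p = 0.021). DESeq2 called 23 (3.41% of all genes tested in either direction). Without the first or the second C24B library the median slope of the members was -0.23 or -0.22, against -0.10 with all libraries. In each of these 2 fits 5 of 42 members turned sign. Without any 1 library of the C24 NahG lines the median slope was -0.10. GLK1 fell with STM as well (-0.19 ± 0.03, adjusted p = 0.012).

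In Ler, NahG changed no member past the threshold. The summed level of the 43 genes was 110596, 135193 and 100481 CPM in Ler NahG, overlapping the Ler libraries. Of 42 members 0 were called (0.590% of all genes tested were called in either direction), 4 had an unadjusted p under 0.05 (8.1% of all genes tested had one), and DESeq2 also called 0. Of the log2 fold changes 41 of 42 were above 0, with a median of 0.21. The size depended on single libraries. Without the first Ler library the median was 0.43 with 41 members at an unadjusted p under 0.05 (14.8% of all genes tested). Without the third Ler or the second Ler NahG library it was 0.10 with 0 such members (6.33 and 7.32% of all genes tested). In each of these fits 0 members were called. The largest were LHCB2.3 (0.58 ± 0.23, adjusted p = 0.52) and LHCB2.2 (0.58 ± 0.22, adjusted p = 0.51). LHCB2.2 read 1214, 1819 and 1215 CPM against 1114, 960 and 774 in Ler, so that each NahG library lay above each Ler library. PSAD2 stood at 0.37 ± 0.20 (adjusted p = 0.68), PSAG at 0.29 ± 0.14 (adjusted p = 0.64), LHCA1 at 0.29 ± 0.18 (adjusted p = 0.73) and PSBO1 at 0.26 ± 0.17 (adjusted p = 0.77). GLK1 (0.13 ± 0.27, adjusted p = 0.96), GLK2 (0.36 ± 0.15, adjusted p = 0.58) and STM (-0.31 ± 0.56, adjusted p = 0.94) were not called, nor was any of 34 other photosynthesis genes.

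In C24, the 1 member called with NahG was LHCB4.3 (AT2G40100), a further gene for CP29 that is known as induced under high light. It lies at chr2:16745628-16747424 (plus). It read 263 and 199 CPM in C24B, 128 and 111 in C24 NahG 2, and 120 and 107 in C24 NahG 3. Both lines lay below both controls, with a change of -0.95 ± 0.17 for line 2 (adjusted p = 0.013). For line 3 it was -1.02 ± 0.17 (adjusted p = 0.0083). In these comparisons 7.10 and 8.16% of all 20112 genes tested were lower, and both use the same C24B libraries. The call ended when either library of the line in question was left out (highest adjusted p = 0.135 and 0.132) and held without either C24B library, where the change was -0.72 to -1.13 in line 2 and -0.78 to -1.20 in line 3. In Ler NahG the gene stood at -0.03 ± 0.15 (adjusted p = 0.98), with 90.7, 80.6 and 106 CPM against 86.3, 103 and 95.1 in Ler. The difference between the NahG effects was -0.95 ± 0.22 (adjusted p = 0.015), the 1 called of 42 members (6.78% of 21061 genes were called lower). The C24 effect is from the later stage and the Ler effect from the first, so accession and stage cannot be told apart. In the first-stage C24 libraries, scaled apart, LHCB4.3 read 85.7 to 105 CPM.

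The coding sequence of LHCB4.3 is farther from the other CP29 genes than these are from each other, sharing 65.7% of aligned coding bases with LHCB4.1 and 66.9% with LHCB4.2, which share 81.1% with each other. LHCB4.1 stood at 4120 and 2627 CPM in C24B and at 2785 to 3100 in the lines, and LHCB4.2 at 392 and 238 and at 316 to 348. For both, the lines lay between the control libraries.

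For the other members the comparison with C24B depended on which control library was used. The first held the highest level in its group of all 42 tested members, and it held almost no STM. Mesophyll genes summed to 52062 and 37806 CPM in C24B, 37106 and 33648 in C24 NahG 2 and 36268 and 31960 in C24 NahG 3, so all line libraries lay below both controls. The second C24 NahG 3 library held 0.0706% of its gene reads on mitochondrial genes, against 0.00786% at most in the others. The part of STM, of the mesophyll genes or of the mitochondrial reads in these results was not tested. The medians were -0.19 in line 2 and -0.17 in line 3, with 6 and 4 members at an unadjusted p under 0.05, where 22.6 and 27.9% of all genes tested had one. DESeq2 called 2 members in either line (11.4 and 14.8% of all genes tested in either direction). Values of members that were not called in line 2 included those of LHCB2.2 (0.69 ± 0.22, adjusted p = 0.11), PSBY (-0.44 ± 0.25, adjusted p = 0.34), PSBTN, a small lumenal photosystem II protein (-0.43 ± 0.16, adjusted p = 0.17), LHCA6 (-0.40 ± 0.20, adjusted p = 0.28) and PSAE2 (-0.37 ± 0.17, adjusted p = 0.24). Values in line 3 included LHCB2.2 (0.61 ± 0.22, adjusted p = 0.12), PSBY (-0.55 ± 0.25, adjusted p = 0.20), PSBO2 (-0.38 ± 0.20, adjusted p = 0.25), PSAF (-0.32 ± 0.22, adjusted p = 0.37) and LHCA6 (-0.31 ± 0.20, adjusted p = 0.33). Without the first C24B library the medians turned to 0.13 and 0.12, with 30 and 32 of 42 members above 0 instead of 11 and 12. Without the second 13 members were lower in either line (10.7 and 13.7% of all 20530 genes tested were lower). With STM as a covariate the medians were 0.13 and 0.14.

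The trimer genes LHCB2.1, LHCB2.2, LHCB2.3 and LHCB1.4 were called higher in both lines in some of those fits. With STM as a covariate they were higher in both lines (1.01 and 1.31% of all genes tested were), LHCB2.2 by 1.09 ± 0.17 for line 2 (adjusted p = 0.0013). For line 3 LHCB2.2 was higher by 1.04 ± 0.17 (adjusted p = 0.0021). In line 2 that fit also called LHCB3 (0.59 ± 0.16, adjusted p = 0.045), LHCB4.2 (0.54 ± 0.15, adjusted p = 0.049) and PSAD2 (0.63 ± 0.17, adjusted p = 0.044) higher; without the covariate the values of these 3 turned negative when the second C24B library was left out. Without the first C24B library the same 4 genes were called higher in both lines (1.14 and 1.94% of all genes tested were), with LHCB2.1 at 0.98 ± 0.17 (adjusted p = 0.0025) and 0.95 ± 0.17 (adjusted p = 0.0028); in line 2 PSAD2 was also called (0.63 ± 0.16, adjusted p = 0.028). Without the second C24B library none of the 4 was called, and LHCB1.4 turned to -0.09 and -0.07. LHCB2.1 read 142 and 86.7 CPM in C24B, 155 and 183 in C24 NahG 2, and 162 and 167 in C24 NahG 3. LHCB2.2 read 270 and 169 CPM in C24B, 326 and 382 in C24 NahG 2, and 335 and 336 in C24 NahG 3. LHCB2.3 read 60.4 and 42.6 CPM in C24B, 69.3 and 77.4 with C24 NahG 2, and 78.9 and 64.6 with C24 NahG 3. For the 3 LHCB2 genes all line libraries lay above both controls, whereas for LHCB1.4, at 334 and 179 CPM in C24B and 283 to 349 in the lines, they did not. How many of all genes lay apart in this way was not counted. With all libraries and no covariate, edgeR's test called none of the 3 (adjusted p = 0.11 to 0.19 in line 2 and 0.12 to 0.18 in line 3). The ratio of summed LHCB to photosystem II was 1.1 and 1.08 in C24B, 1.28 and 1.27 for line 2 and 1.17 and 1.27 for line 3. Whether this ratio differed was not tested.

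GLK1 stood at -0.35 ± 0.29 (adjusted p = 0.52) for line 2 and at -0.62 ± 0.29 (adjusted p = 0.21) for line 3. In the same order GLK2 stood at 0.17 ± 0.12 (adjusted p = 0.46) and 0.25 ± 0.12 (adjusted p = 0.24). STM stood at 1.18 ± 1.01 (adjusted p = 0.53) and 1.46 ± 1.01 (adjusted p = 0.37). None of 34 further photosynthesis genes passed the threshold with edgeR (0 called), and 10 in line 2 and 8 in line 3 had an unadjusted p under 0.05, against the 22.6 and 27.9% of all genes given above.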

How the data were processed

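The authors deposited raw read counts per gene for each library. Per the submitters' processing notes STAR 2.5.3, DESeq2 and TAIR10 were used; for counting and strand settings, the sources used here give nothing. The 5 rows that name no gene (unmapped 2.76 to 10.3%, several places 1.37 to 2.42%, no gene 0.256 to 0.523%, more than 1 gene 3.47 to 4.85% of reads) were left out. All 18 libraries, grouped by the labels, were used.

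Genes kept by edgeR's filterByExpr were scaled by TMM and tested with edgeR 4.0.16 (quasi-likelihood, 1 coefficient per group, stages fitted apart) in R 4.3.3. SE was derived from the fold change and its F statistic. The STM fits add log2 STM CPM (prior count 2). DESeq2 1.42.0, RLE scaling, no filter, a replicate block, fewer groups, marker covariates and leaving out each library were tried. Scripts were tested on simulated data. Exons, promoters and gene names came from RefSeq's TAIR10.1, which matched 37051 rows (99.2%); pandas 2.3.3 and Biopython 1.88 were used. The members, lists and tests were chosen with earlier results of these data known. Named genes follow a rule: any member, with values for called, most abundant or most changed members of each class; up to 3 called genes of lowest p per other list, and GLK1, GLK2 and STM. The C24 line calls without a C24B library were named after their values were seen.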

Additional observations from a re-analysis of the deposited data

Results flagged for a closer look

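LHCB4.3 differed in its response to NahG between the later-stage C24 lines and first-stage Ler NahG, where accession and stage cannot be told apart. Its log2 fold change in the C24 lines, averaged, minus that in Ler was -0.95 ± 0.22 (adjusted p = 0.015 with edgeR's quasi-likelihood test of the difference). All 4 line libraries lay below both C24B libraries, while the Ler NahG and Ler libraries overlapped. Without the first C24B library the difference was -0.73 (adjusted p = 0.126). No group holds the 4 or more libraries needed to look for a single library apart from the rest.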

How the results depend on the processing

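No member was called in Ler NahG against Ler under any alternative tried. With RLE scaling, no low-count filter and DESeq2, 5, 6 and 22 members were called in the hybrid against Ler. In the same order 5977 of 20325, 5997 of 27992 and 6554 of 20325 genes were called. With the compared groups only 0 members were called, where 3949 of 19195 genes were. Without the filter and with DESeq2, 2 members were called in each C24 NahG line, and 10 and 23 fell with STM in the later stage. With summed apex markers in place of STM the latter count was 0, where 24 of all 20111 genes tested were called. In that fit 36 members had an unadjusted p under 0.05 (12.8% of all genes tested). In the first stage 38 members fell with the summed apex markers, where 3826 of all 20324 genes tested were called in either direction. Replicate numbers are shared only as numbers. Deviations from the group mean correlated between same-numbered libraries at -0.19 to 0.47 and 0.03 to 0.13. In the 2 stages 5 of 12 and 6 of 6 libraries were closest to their own number. With 2 libraries per group in the later stage these deviations mirror each other, so the 6 matches are not separate observations. A replicate block gave 18 members in the hybrid against Ler, where 5989 of all 20325 genes tested were called. It gave 0 falling with STM in the first stage (57 of all 20324 genes called) and 2 in the later stage (363 of 20111). In the first stage 33 members then had an unadjusted p under 0.05 (17.5% of all genes tested), with a median slope of -0.17. Other member counts stayed within 1.5 times.

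With STM as covariate 30 members were called in C24 against Ler, 0 in each hybrid comparison, 8 in line 2 and 5 in line 3. The medians turned to -0.27, -0.62 and -0.44 in the hybrid against C24, Ler and the mid-parent and to 0.13 and 0.14 in the lines. Against C24, PSAD2 was -0.17, PSAN -0.16, PSBO2 -0.26, PSBP1 -0.31 and PSBS -0.25. Against Ler, LHCB4.1 was -0.49, PSBS -0.37, PSAG -0.34, PSAO -0.60, PSBP1 -0.55 and PSBQ2 -0.59. Against the mid-parent, LHCA3 was -0.37, LHCB2.3 -0.25, PSAG -0.21 and PSBO2 -0.46. PSBY was 0.064 in line 2, and PSAF and LHCA6 were 0.062 and 0.057 in line 3. The cause was not tested.

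Leaving out 1 library gave 11 to 16 members in C24 against Ler, where 7130 to 9131 of all genes tested were called. In the hybrid it gave 35 to 41 against C24 (5578 to 8261 of all genes). The counts were 0 to 35 against Ler (3996 to 7608 of all genes) and 15 to 41 against the mid-parent (2810 to 6771). It gave 0 to 41 and 0 to 29 falling with STM in the 2 stages, 0 to 13 in each C24 line and 0 to 14 for the NahG difference. Over the 42 tested members, 11 turned sign in at least 1 such fit in C24 against Ler, 1, 5 and 1 in the hybrid against C24, Ler and the mid-parent, 7 in Ler NahG, 27 in line 2, 29 in line 3 and 15 in the NahG difference, and 2 and 5 with STM in the 2 stages. Among the members whose fold changes or slopes without a covariate are named in the report, the ranges that crossed 0 were PSAD1 (-0.30 to 0.067) and PSBS (-0.20 to 0.053) in C24 against Ler, and LHCB4.3 in Ler NahG (-0.14 to 0.056), in the hybrid against C24 (-0.14 to 0.17), the mid-parent (-0.11 to 0.19) and with STM (-0.051 to 0.093). In line 2 they were the median (-0.38 to 0.13) PSBY (-0.78 to 0.044) and LHCB1.4 (-0.086 to 0.83), in line 3 the median (-0.38 to 0.12), LHCB1.4 (-0.073 to 0.85), PSAF (-0.58 to 0.042) and LHCA6 (-0.57 to 0.027), and PSAD2 with STM in the later stage (-0.15 to 0.16). A group left with 1 library was assumed to vary like the others. With 2 or 3 pools per group, and 1 low-STM library in each of Ler, Ler NahG and C24B, small changes could not be resolved; tested members had at least 1335 reads in every library.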
